A study of Mus musculus with 12 samples.

Results

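The immediate early response genes described here are 37 genes chosen by name: the AP-1, Egr, Klf and Nr4a transcription factors, MAP kinase phosphatases, and regulators of mRNA decay, growth and stress that respond in the same way. They were chosen with earlier results of these data known. All 37 were found, each as 1 row, among the 56748 genes of a count table from bulk kidney RNA of wild-type C57BL/6 mice. The table holds 3 groups of 4 samples, all treated with cisplatin, an anticancer drug whose main side effect is damage to kidney tubules. In the pFUS_UC group, pulsed focused ultrasound and mesenchymal stem cells from umbilical cord were added to cisplatin. The UC group had cisplatin and these cells, and the AKI group had cisplatin alone. The series set out to ask whether ultrasound given before the cells helps the injured kidney. The sources used here give neither the species or dose of the cells, nor the ultrasound settings, the age and sex of the mice or the time between treatment and sampling. Kidneys without injury, or with ultrasound but no cells, are not among the samples. The labels do not say whether the 4 samples of a group are separate animals, so p-values measure only the spread between samples, which may be technical.

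Immediate early genes are transcribed within minutes of a signal, without the need for newly made protein. ERK, p38 and JNK kinases, calcium and cyclic AMP activate factors that already sit in the cell, such as SRF with its Elk partners and CREB, and these turn the genes on. The transcripts are short-lived, and many of the proteins close the loop: phosphatases switch the kinases off, and mRNA decay factors remove the transcripts. In the kidney, Fos, Jun, Egr1 and Atf3 are widely used as signs of an acute response to ischaemia or toxins.

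Each library held 17.3 to 25.2 M (mega) counts. A count of 0 allows a level of up to 3 counts, or 0.119 to 0.173 CPM (counts per M counts of the library), as far as counting error goes. The share of counts from mitochondrial genes was 7.38 to 15.34% in pFUS_UC, 8.57 to 18.64% in UC and 2.87 to 7.12% in AKI. Levels varied with gene length differently by group: the rank correlation across genes between a library's deviation from the mean and gene length was -0.253 to 0.04 in pFUS_UC, -0.226 to -0.129 in UC and 0.165 to 0.415 in AKI. The sample codes of AKI are of another kind than those of UC and pFUS_UC, so a batch cannot be told apart from that group.

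Upstream sequences are shown for 7 genes as examples. Each holds a match to a known type of site for SRF, CREB or Egr factors, and the matches differ from gene to gene. RefSeq windows on GRCm38.p6 were at hand for 29 of the 37 genes, and only the 250 bases before each start were read. Klf10, Dusp4, Myc, Egr1, Egr3, Fosl1, Ier2 and Trib1 had no window, so their sites are not known here. The windows shown are Fos at chr12:85473640-85473889 (plus strand), Btg2 at chr1:134079156-134079405 (minus strand), Dusp1 at chr17:26508473-26508722 (minus strand), Zfp36 at chr7:28379229-28379478 (minus strand), Dusp5 at chr19:53528895-53529144 (plus strand), Nr4a1 at chr15:101266596-101266845 (plus strand) and Klf4 at chr4:55532476-55532725 (minus strand). Each is written from 5′ to 3′ on the strand of the gene, and capitals mark every match to the motifs described after them.
Fos: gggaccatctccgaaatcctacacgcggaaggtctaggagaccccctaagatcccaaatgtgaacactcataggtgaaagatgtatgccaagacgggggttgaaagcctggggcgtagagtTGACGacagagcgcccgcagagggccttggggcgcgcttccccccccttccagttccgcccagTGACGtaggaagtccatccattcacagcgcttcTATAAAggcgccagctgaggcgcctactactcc
Btg2: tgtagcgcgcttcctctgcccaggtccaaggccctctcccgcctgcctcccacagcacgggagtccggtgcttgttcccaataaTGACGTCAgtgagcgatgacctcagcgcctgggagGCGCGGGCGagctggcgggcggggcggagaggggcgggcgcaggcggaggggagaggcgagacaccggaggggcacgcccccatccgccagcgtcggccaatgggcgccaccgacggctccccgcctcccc
Dusp1: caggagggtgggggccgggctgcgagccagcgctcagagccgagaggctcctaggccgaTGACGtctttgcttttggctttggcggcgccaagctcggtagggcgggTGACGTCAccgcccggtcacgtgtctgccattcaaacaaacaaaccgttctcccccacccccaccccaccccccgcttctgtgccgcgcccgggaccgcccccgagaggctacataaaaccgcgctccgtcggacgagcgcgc
Zfp36: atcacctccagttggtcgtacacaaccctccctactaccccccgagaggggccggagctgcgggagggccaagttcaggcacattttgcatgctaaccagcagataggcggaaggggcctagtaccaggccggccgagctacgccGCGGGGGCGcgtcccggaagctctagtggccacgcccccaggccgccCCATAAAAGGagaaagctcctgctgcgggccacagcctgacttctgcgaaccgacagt
Dusp5: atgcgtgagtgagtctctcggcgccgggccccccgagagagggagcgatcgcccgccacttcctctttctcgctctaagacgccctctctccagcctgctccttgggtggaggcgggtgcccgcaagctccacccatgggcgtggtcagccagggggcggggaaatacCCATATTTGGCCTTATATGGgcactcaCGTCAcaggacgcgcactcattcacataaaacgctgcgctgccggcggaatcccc
Nr4a1: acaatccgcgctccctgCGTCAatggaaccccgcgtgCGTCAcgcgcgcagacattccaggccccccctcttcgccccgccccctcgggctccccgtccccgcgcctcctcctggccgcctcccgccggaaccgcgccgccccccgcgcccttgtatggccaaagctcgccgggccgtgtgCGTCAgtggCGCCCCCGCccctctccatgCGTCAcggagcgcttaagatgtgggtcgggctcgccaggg
Klf4: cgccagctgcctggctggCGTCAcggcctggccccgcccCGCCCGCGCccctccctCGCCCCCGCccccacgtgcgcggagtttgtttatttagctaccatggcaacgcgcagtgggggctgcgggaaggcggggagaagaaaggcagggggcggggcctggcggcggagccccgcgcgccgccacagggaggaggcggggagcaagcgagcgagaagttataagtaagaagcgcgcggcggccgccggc

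The motifs were searched on both strands. They were the CArG box of SRF, the cyclic AMP element TGACGTCA, its core TGACG (which lies inside it), the AP-1 site TGANTCA, the Egr site GCGNGGGCG and the TATA box TATAAA. The 29 genes have 38 windows, and those of 1 gene can overlap and repeat a site, so matches are given by gene, beside the share of all 27025 genes with a window. The core was found for 16 of the 29 genes, or 55.2%, against 19.8% of all genes. The whole cyclic AMP element was found for 4 genes, Btg2, Dusp1, Maff and Ppp1r15a, or 13.8%, against 1.77% of all genes. An Egr site was found for 12 genes, or 41.4%, against 5.33% of all. A CArG box was found for 3 genes, Dusp5, Egr2 and Zfp36, or 10.3%, against 1.62% of all. Egr2 has several windows with a CArG box, and overlapping ones among them hold the same site. Dusp5 held a pair of CArG boxes side by side, as its window above shows. The AP-1 site was found for Csrnp1 alone, or 3.45% of the genes, against 7.82% of all. The TATA box was found for Fos, Gadd45b, Gadd45g and Nr4a2, or 13.8%, against 14.3% of all. These matches describe the letters of the windows, and a gene without a match may hold the site further upstream. Genes that fell and genes that did not pass the test are both among those with a core: Fos, Nr4a1 and Klf4 on the side that fell, and Dusp5 on the other.

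Levels are given as CPM, here with the library total scaled by edgeR's TMM factors. Changes are log2 fold changes from edgeR's quasi-likelihood F-test on all 12 samples, with their standard error (SE), and a gene counts as called at a Benjamini-Hochberg adjusted p under 0.05 over 16947 tested genes. Of the 37 genes, 36 passed the filter on low counts and were tested. Only Egr3 was too low for this fit, and its counts are given below.

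In kidneys of pFUS_UC mice, 24 of 36 immediate early genes were lower than in AKI kidneys and 0 were higher, against 22.1% of all tested genes called lower and 21.9% called higher. Among these 24 were Fos, Jun and Junb of the AP-1 family, Egr1 and Egr2, Klf2 and Klf4, the phosphatases Dusp1, Dusp4 and Dusp6, and the mRNA decay factor Zfp36. At least 2-fold changes were seen in 20 of them. The median change of the 36 genes was -1.26 on the log2 scale, against 0.02 for all tested genes. The change was below 0 for 35 of the 36, against 48.4% of all genes. The groups did not overlap, with every pFUS_UC sample below every AKI sample, for 12 of the 36, against 21.1% of all genes. In bulk tissue, fewer cells of a type and less RNA per cell cannot be told apart. Leaving out the AKI and pFUS_UC libraries that stood apart, which are described with the spread between samples, gave 22 called genes and a median of -1.28.

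In UC kidneys, 15 of the 36 genes were lower than in AKI kidneys and 0 were higher, against 24.3% and 24.1% of all tested genes. The largest change was that of Egr2, and Dusp4, Fos, Nr4a1 and Fosb also fell more than 4-fold. At least 2-fold changes were seen in 12 of the 15. The median change was -0.68, against 0.03 for all genes, and 31 of the 36 changes were below 0, against 48.4% of all. The groups did not overlap for 7 of the 36, near the 21.3% of all genes, so this count is no result about the family. This count moved with single libraries: 8 genes were called lower without UC replicate 4 or without AKI replicate 4, 9 without UC replicate 3 or AKI replicate 3, and 18 without AKI replicate 1. Without AKI replicate 1 and pFUS_UC replicate 4 together, 21 were called. Both comparisons use the same AKI samples, so they are not independent. In both, 14 genes were called: Dusp1, Dusp4, Dusp6, Egr1, Egr2, Fos, Jun, Junb, Klf2, Klf4, Nr4a1, Ppp1r15a, Rhob and Zfp36. Another 10 passed only in pFUS_UC against AKI and Fosb only in UC against AKI, which does not show that the changes differ.

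**Figure D1:**
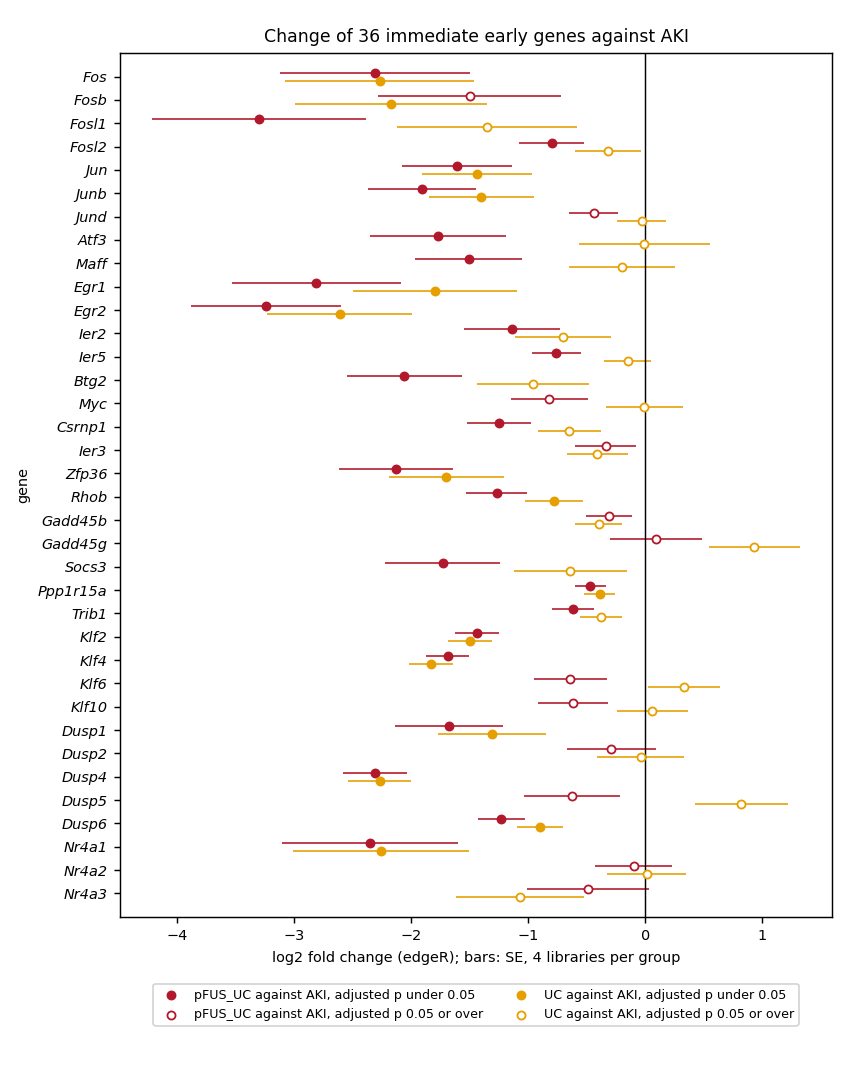
Log2 fold changes of the 36 tested genes (rows) in pFUS_UC against AKI and in UC against AKI, with bars for the SE, 4 samples a group, and filled symbols for called genes. Nearly all points lie left of 0: 35 of 36 for pFUS_UC and 31 of 36 for UC.

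The AP-1 genes encode Fos and Jun proteins and their relatives, which pair up and bind DNA. Of 9 such genes, 7 fell in pFUS_UC and 4 in UC against AKI, and 0 rose in either. Of all tested genes, 22.1% and 24.3% were called lower in these comparisons. Fos, the best known immediate early gene, had 43.7, 16.2, 4.32 and 0.788 CPM in the 4 pFUS_UC samples and 26.5, 18.5, 15.8 and 6.30 CPM in the UC samples, against 27.2, 85.0, 126 and 84.8 CPM in the AKI samples. Every UC sample lay below every AKI sample, whereas pFUS_UC replicate 1 lay above AKI replicate 1. Fos changed by -2.31 (SE 0.81, edgeR adjusted p = 0.0333) in pFUS_UC and by -2.27 (SE 0.81, adjusted p = 0.0331) in UC. The pFUS_UC call was lost, at adjusted p of 0.0575 to 0.0856 and changes of -2.31 to -1.99, without replicate 2 or 3 of pFUS_UC or replicate 2, 3 or 4 of AKI, and the change was -3.52 without pFUS_UC replicate 1. The UC call was lost, at 0.0561 to 0.0810 and changes of -2.33 to -1.97, without replicate 2, 3 or 4 of either group.

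Jun, the main partner of Fos, had 137, 76.0, 41.6 and 25.9 CPM in pFUS_UC and 132, 67.9, 67.7 and 49.0 CPM in UC, against 101, 200, 289 and 267 CPM in AKI. Junb, a partner that can restrain Jun, had 119, 89.1, 49.6 and 26.5 CPM in pFUS_UC and 160, 72.5, 109 and 63.9 CPM in UC, against 107, 304, 339 and 320 CPM in AKI. For both genes AKI replicate 1 lay within the range of the treated samples, and the other 3 AKI samples lay above all of them. Jun changed by -1.61 (SE 0.47, adjusted p = 0.0140) in pFUS_UC and by -1.44 (SE 0.47, adjusted p = 0.0217) in UC. Junb changed by -1.91 (SE 0.46, adjusted p = 0.00481) in pFUS_UC and by -1.40 (SE 0.45, adjusted p = 0.0205) in UC. The UC calls were lost without UC replicate 2 or 4 or AKI replicate 3 for both genes, and for Jun also without UC replicate 3 or AKI replicate 4, at adjusted p of 0.0503 to 0.0583 for Jun and 0.0508 to 0.0576 for Junb. Jund, the member of the trio that is expressed without a stimulus, had 106 to 203 CPM in pFUS_UC, 164 to 253 CPM in UC and 155 to 257 CPM in AKI and was not called.

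Atf3, a stress-induced repressor that binds AP-1 and cyclic AMP sites, had 5.92, 7.0, 7.02 and 1.03 CPM in pFUS_UC and 35.9, 7.12, 21.7 and 6.25 CPM in UC, against 11.8, 19.6, 14.7 and 25.5 CPM in AKI. All pFUS_UC samples lay below all AKI samples, while the UC samples spread over both ranges. It fell in pFUS_UC by 1.77 on the log2 scale (SE 0.58, adjusted p = 0.0252, and 0.0679 without AKI replicate 4), and its change in UC was -0.01 (SE 0.56, adjusted p = 0.986). Maff, a small Maf protein that binds related sites, had 6.10, 3.91, 3.30 and 1.58 CPM in pFUS_UC and 14.4, 3.62, 12.7 and 6.21 CPM in UC, against 10.5, 15.5, 5.48 and 11.2 CPM in AKI. Its groups overlapped. Maff changed by -1.51 (SE 0.46, adjusted p = 0.0180, and 0.0552 without AKI replicate 2) in pFUS_UC and by -0.20 (SE 0.45, adjusted p = 0.730) in UC. Fosl2, a Fos relative, fell by 0.80 in pFUS_UC (SE 0.28, adjusted p = 0.0333). That call was lost, at 0.0650 to 0.0935, without any of replicates 2, 3 and 4 of pFUS_UC or replicates 2 and 4 of AKI, and at 0.141 with an offset for gene length.

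The other Fos relatives were low. Fosb had 5.02, 1.43, 0.984 and 0.0492 CPM in pFUS_UC and 0.934, 2.33, 0.749 and 0.770 CPM in UC, against 1.40, 4.90, 9.84 and 5.12 CPM in AKI. It was called in UC against AKI, with a change of -2.17 (SE 0.82, adjusted p = 0.0422). Leaving out pFUS_UC replicate 2, UC replicate 1, 3 or 4 or AKI replicate 2, 3 or 4 ended that call, at adjusted p of 0.0526 to 0.130. Fosl1 had counts of 5, 2, 2 and 0 in pFUS_UC and 16, 4, 8 and 3 in UC, against 19, 26, 2 and 36 in AKI. It fell by 3.30 in pFUS_UC (SE 0.91, adjusted p = 0.0102), a size that rests on these few counts, and by 3.95 without pFUS_UC replicate 1. Fosl1 passed the filter on low counts only through AKI replicates 1, 2 and 4 and UC replicate 1. Its place among the called genes thus depends on the group where it was high and adds no independent support. Fosl1 overlaps Ccdc85b on the other strand, which averaged 1449 counts against 10.2 for Fosl1, and Junb likewise overlaps Prdx2, with 5427 counts against 2933. Whether counting used the strand is not given in the sources used here, so reads of such pairs may not have been told apart.

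The Egr factors are zinc finger proteins that bind GC-rich sites near many genes. Both tested members fell in both comparisons. Egr1 had 72.1, 47.2, 16.8 and 3.0 CPM in pFUS_UC and 118, 44.3, 82.2 and 35 CPM in UC, against 82.4, 269, 297 and 328 CPM in AKI. All pFUS_UC samples lay below all AKI samples, and UC replicate 1 lay above AKI replicate 1. Egr1 was 7.02-fold lower in pFUS_UC than in AKI (log2 change -2.81, SE 0.72, adjusted p = 0.00727, and -3.46 without pFUS_UC replicate 1). In UC it was 3.49-fold lower (log2 change -1.80, SE 0.70, adjusted p = 0.0459). That UC call was lost, at adjusted p of 0.0552 to 0.108, without pFUS_UC replicate 2 or without replicate 2, 3 or 4 of UC or of AKI.

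Egr2 had 1.69, 1.10, 0.428 and 0.0984 CPM in pFUS_UC and 1.68, 0.737, 1.14 and 1.59 CPM in UC, against 3.70, 16.8, 6.03 and 5.23 CPM in AKI. All 8 treated samples lay below all AKI samples. It changed by -3.24 in pFUS_UC (SE 0.64, adjusted p = 0.00146) and by -2.61 in UC (SE 0.62, adjusted p = 0.00372). Without AKI replicate 2, its highest sample, the changes were -2.58 and -1.95, and without pFUS_UC replicate 1 the first was -3.88. Egr3, not tested in the main fit, had counts of 6, 3, 11 and 1 in pFUS_UC and 0, 1, 5 and 3 in UC, against 7, 12, 11 and 10 in AKI. Every UC sample lay below every AKI sample, and pFUS_UC overlapped with AKI. Without a filter edgeR tested all 37 genes, Egr3 included. It then called 26 lower and 0 higher in pFUS_UC and 18 lower and 1 higher in UC.

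The Klf factors are zinc finger proteins, of which Klf2 and Klf4 are known in the endothelium as genes that respond to blood flow. Klf2 had 19.5, 24.9, 19.8 and 23.2 CPM in pFUS_UC and 17.3, 18.9, 19.6 and 28.4 CPM in UC, against 39.6, 72.7, 63.3 and 62.1 CPM in AKI. Klf4 had 5.49, 4.41, 4.49 and 5.41 CPM in pFUS_UC and 5.05, 3.81, 5.50 and 3.61 CPM in UC, against 13.9, 17.6, 13.8 and 18.6 CPM in AKI. For both genes all 8 treated samples lay below all AKI samples, and the samples of a group lay close together. Klf2 fell by 1.44 in pFUS_UC (SE 0.19, adjusted p = 1.42e-04) and by 1.50 in UC (SE 0.19, adjusted p = 7.81e-05). Klf4 fell by 1.69 in pFUS_UC (SE 0.18, adjusted p = 6.29e-05) and by 1.83 in UC (SE 0.19, adjusted p = 3.27e-05). Klf4 had the smallest adjusted p of the 36 genes in both comparisons.

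The sum of endothelial cell markers, like Klf2 and Klf4, was lower in every treated sample than in every AKI sample. The 10 endothelial markers summed to 376 to 525 CPM in pFUS_UC and 205 to 537 CPM in UC, against 839 to 1504 CPM in AKI. Of these markers, 8 were called lower and 1 higher in pFUS_UC, and 9 were called lower in UC. For these marker lists, 22.1% of all tested genes were lower and 21.9% higher in pFUS_UC, and 24.3% and 24.1% in UC. The defining marker Pecam1 was at 24.6 to 34 CPM in pFUS_UC and 15.5 to 38.3 CPM in UC, against 60.8 to 100 CPM in AKI. The sums of podocyte markers and of vascular smooth muscle and fibroblast markers were lower too. The first was 246 to 390 CPM in pFUS_UC and 155 to 324 CPM in UC, against 760 to 1147 CPM in AKI. In both comparisons 7 of its 8 markers were called lower. The second was 210 to 263 CPM in pFUS_UC and 145 to 229 CPM in UC, against 320 to 679 CPM in AKI. Of its 8 markers, 5 were called lower in pFUS_UC and 6 in UC. Its marker Acta2 was at 46.1 to 78.4 CPM in pFUS_UC and 39.4 to 50.4 CPM in UC, against 32.9 to 58.1 CPM in AKI. Marker sums of 2 tubule segments differed as well. The 4 markers of the thick ascending limb summed to 1678 to 2880 CPM in pFUS_UC and 1060 to 2899 CPM in UC. In AKI they summed to 3511 to 5630 CPM. Of them 2 were called lower in pFUS_UC and 1 in UC, the second near the share of all tested genes. The 4 markers of the distal and connecting tubule summed to 1093 to 1374 CPM in pFUS_UC and 251 to 944 CPM in UC, against 252 to 479 CPM in AKI, with all 4 called higher in pFUS_UC and 2 in UC. Neutrophil markers summed to 0.882 to 1.53 CPM in pFUS_UC and 0.749 to 1.81 CPM in UC, against 1.83 to 6.56 CPM in AKI. Adipocyte markers summed to 56.0 to 116 CPM in pFUS_UC and 9.15 to 44.1 CPM in UC, against 37.6 to 75.5 CPM in AKI. Of these 5, 1 was called higher in pFUS_UC and 4 lower in UC. Sums of macrophage, lymphocyte, proximal tubule and collecting duct markers overlapped with AKI in both comparisons. The part of these cells in the changes of the immediate early genes was not tested. Kidney identity was clear in every group, with the proximal tubule transporter Slc34a1 at 4428 to 4949 CPM in pFUS_UC, 2925 to 5224 CPM in UC and 3512 to 6711 CPM in AKI.

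Klf6 and Klf10, which respond to injury and to TGF-beta, were not called in any comparison. Klf6 had 38.1, 37.8, 31.1 and 27.7 CPM in pFUS_UC and 112, 39.2, 73.5 and 40.8 CPM in UC, against 56.5, 66.4, 29.8 and 57.9 CPM in AKI. Its changes were -0.64 (SE 0.31, adjusted p = 0.111) in pFUS_UC and 0.33 (SE 0.31, adjusted p = 0.394) in UC. Klf10 ranged from 8.47 to 18.5 CPM in pFUS_UC, from 15.3 to 28.3 CPM in UC and from 11.3 to 31.2 CPM in AKI.

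**Figure D2:**
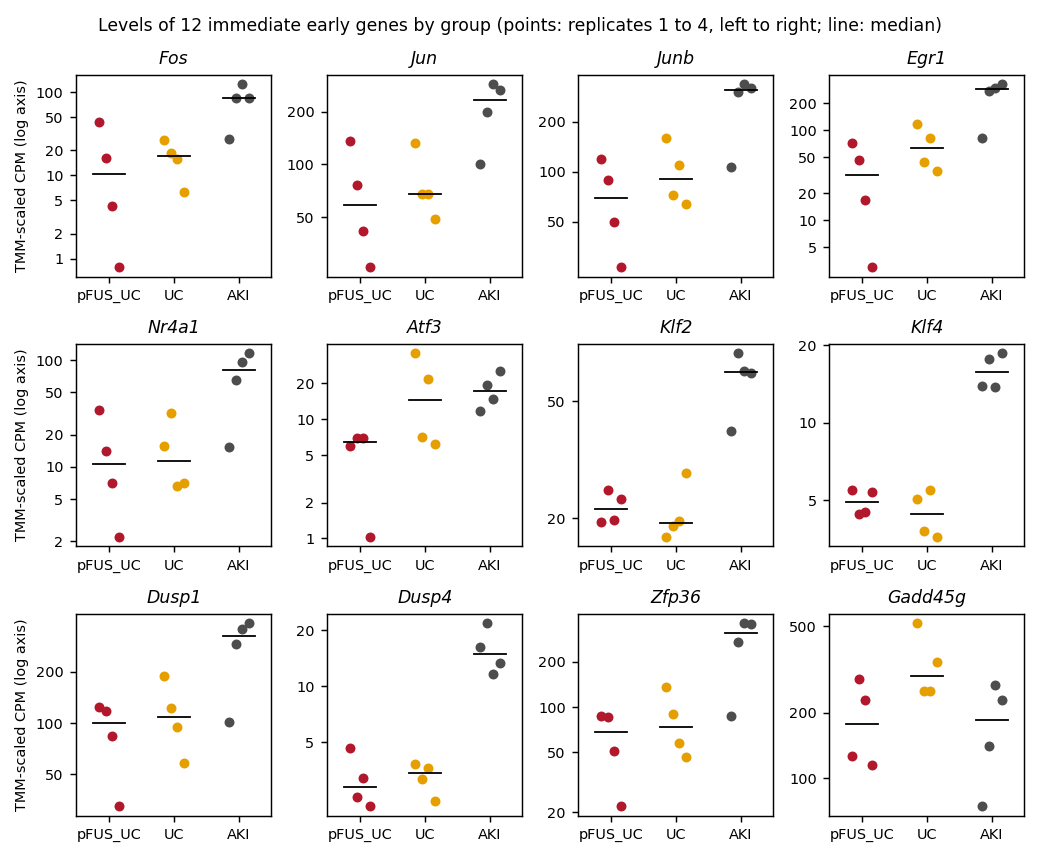
TMM-scaled CPM (log axes that differ between panels) of 12 immediate early genes in each sample of pFUS_UC, UC and AKI; points are replicates 1 to 4 from left to right and lines are medians. Klf2, Klf4 and Dusp4 separate every treated sample from every AKI sample. AKI replicate 1 falls among the treated samples for Fos, Jun, Junb, Egr1, Nr4a1, Atf3, Dusp1 and Zfp36.

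The Nr4a receptors are nuclear receptors that act without a known hormone. Nr4a1 had 33.9, 14.2, 7.02 and 2.21 CPM in pFUS_UC and 15.7, 32.2, 6.65 and 7.02 CPM in UC, against 15.5, 65.1, 95.9 and 116 CPM in AKI. AKI replicate 1 was the only AKI sample within the range of the treated ones. Nr4a1 changed by -2.35 in pFUS_UC (SE 0.75, adjusted p = 0.0225) and by -2.26 in UC (SE 0.75, adjusted p = 0.0245). The first call was lost without replicate 2 or 3 of pFUS_UC or replicate 4 of AKI (adjusted p 0.0531 to 0.0664), and its change was -3.23 without pFUS_UC replicate 1. The second was lost without replicate 1, 3 or 4 of UC or replicate 3 or 4 of AKI (0.0506 to 0.0655), and its change was -2.91 without UC replicate 2. Nr4a2 and Nr4a3 were at low levels. Nr4a2 ranged from 0.837 to 2.25 CPM in pFUS_UC, from 1.35 to 1.66 CPM in UC and from 0.962 to 1.72 CPM in AKI, and Nr4a3 reached at most 0.591, 0.737 and 0.992 CPM in these groups. Neither was called.

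Dual specificity phosphatases switch MAP kinases off, and 3 of the 5 fell in both comparisons. This count rests on few genes and stands beside 22.1% of all tested genes lower in pFUS_UC and 24.3% in UC. Dusp1, a nuclear phosphatase for p38 and JNK, had 124, 117, 84.2 and 32.3 CPM in pFUS_UC and 188, 122, 94.3 and 58.0 CPM in UC, against 102, 293, 357 and 389 CPM in AKI. AKI replicate 1 lay among the treated samples, and the other 3 lay above them all. Dusp1 changed by -1.68 in pFUS_UC (SE 0.46, adjusted p = 0.0108) and by -1.31 in UC (SE 0.46, adjusted p = 0.0313). The UC call was lost, at 0.0552 to 0.0827, without replicate 2, 3 or 4 of either group. Dusp1 overlaps Ergic1 on the other strand, which averaged 1377 counts against 3242 for Dusp1.

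Dusp4, a nuclear phosphatase for ERK, had 4.63, 2.54, 3.21 and 2.26 CPM in pFUS_UC and 3.80, 3.19, 3.65 and 2.41 CPM in UC, against 16.3, 21.9, 11.6 and 13.3 CPM in AKI. Dusp6, the cytoplasmic ERK phosphatase, had 49.3, 33.8, 31.9 and 23.9 CPM in pFUS_UC and 52.0, 30.9, 47.1 and 44.3 CPM in UC, against 75.3, 85.1, 87.5 and 78.3 CPM in AKI. For both, all treated samples lay below all AKI samples. Dusp4 was 4.97-fold lower in pFUS_UC (log2 change -2.31, SE 0.27, adjusted p = 7.60e-05) and 4.84-fold lower in UC (log2 change -2.27, SE 0.27, adjusted p = 4.95e-05). Dusp6 changed by -1.23 in pFUS_UC (SE 0.20, adjusted p = 4.06e-04) and by -0.90 in UC (SE 0.20, adjusted p = 0.00214).

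Dusp5, a nuclear ERK phosphatase and the gene with paired CArG boxes, had another pattern. It had 2.98, 3.86, 2.61 and 2.02 CPM in pFUS_UC and 14.3, 3.75, 9.73 and 3.42 CPM in UC, against 3.46, 5.18, 3.73 and 5.34 CPM in AKI. UC replicates 1 and 3 lay above every other sample, and the remaining samples overlapped. Its changes were -0.63 (SE 0.41, adjusted p = 0.234) in pFUS_UC and 0.82 (SE 0.40, adjusted p = 0.109) in UC. Dusp2, a phosphatase best known from immune cells, ranged from 0.827 to 1.95 CPM in pFUS_UC, from 1.11 to 2.60 CPM in UC and from 1.16 to 2.06 CPM in AKI and was not called.

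Of 5 other regulators of transcription and growth, 4 fell in pFUS_UC and 0 in UC against AKI, beside 22.1% and 24.3% of all tested genes. Btg2, which restrains proliferation and recruits the deadenylation machinery, had 98.7, 53.9, 33.3 and 18.7 CPM in pFUS_UC and 165, 72, 146 and 54.8 CPM in UC, against 108, 275, 184 and 285 CPM in AKI. All pFUS_UC samples lay below all AKI samples, and the UC samples overlapped both groups. Btg2 was 4.17-fold lower in pFUS_UC (log2 change -2.06, SE 0.49, adjusted p = 0.00467), and its change in UC was -0.96 (SE 0.48, adjusted p = 0.111). Csrnp1, a nuclear transcription factor, had 15.2, 13.4, 14 and 8.52 CPM in pFUS_UC and 29.5, 16.5, 17 and 14.4 CPM in UC, against 17.9, 29.9, 32.4 and 41.3 CPM in AKI. It fell by 1.25 in pFUS_UC (SE 0.27, adjusted p = 0.00285), and its change in UC was -0.65 (SE 0.27, adjusted p = 0.0608).

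Ier5, which acts on the heat shock factor HSF1, fell by 0.76 in pFUS_UC (SE 0.21, adjusted p = 0.00909), with 25.5 to 41.6 CPM in pFUS_UC, 35.4 to 58.9 CPM in UC and 41.1 to 60.4 CPM in AKI. Ier2, a nuclear protein of the same class, fell by 1.14 in pFUS_UC (SE 0.41, adjusted p = 0.0372), with 27.7 to 82.0 CPM in pFUS_UC, 43.9 to 112 CPM in UC and 41.8 to 162 CPM in AKI. The Ier2 call was lost, at 0.0581 to 0.107, without replicate 2, 3 or 4 of either group. Myc, the growth-promoting transcription factor, had 12.7, 12.9, 8.43 and 5.46 CPM in pFUS_UC and 28.8, 13.1, 16.2 and 11.3 CPM in UC, against 16.1, 19.2, 11.1 and 23.6 CPM in AKI. Its change of -0.82 in pFUS_UC did not pass the threshold (SE 0.33, adjusted p = 0.0592), and its change in UC was -0.01 (SE 0.33, adjusted p = 0.979).

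Among 8 feedback and stress regulators, 5 fell in pFUS_UC and 3 in UC, beside 22.1% and 24.3% of all tested genes. Zfp36, which binds AU-rich elements and speeds the decay of cytokine and immediate early mRNAs, had 87.2, 85.9, 51.1 and 21.9 CPM in pFUS_UC and 136, 89.8, 57.8 and 47.0 CPM in UC, against 87.1, 271, 364 and 356 CPM in AKI. Again AKI replicate 1 lay among the treated samples and the other 3 lay above them all. Zfp36 fell by 2.13 in pFUS_UC (SE 0.49, adjusted p = 0.00393) and by 1.70 in UC (SE 0.49, adjusted p = 0.0110). Socs3, the inhibitor of JAK kinases downstream of interleukin 6, had 11.2, 14.1, 7.83 and 2.81 CPM in pFUS_UC and 33.1, 7.06, 23.0 and 13.5 CPM in UC, against 23.6, 49.9, 21.6 and 24.4 CPM in AKI. It fell by 1.73 in pFUS_UC (SE 0.49, adjusted p = 0.0122), where no sample reached the AKI range, and its change in UC was -0.64 (SE 0.48, adjusted p = 0.283).

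Rhob, a small GTPase of endosomes, had 94.3, 109, 77.0 and 74.3 CPM in pFUS_UC and 163, 62.5, 130 and 140 CPM in UC, against 146, 256, 222 and 231 CPM in AKI. All pFUS_UC samples lay below the AKI range, and UC replicate 1 reached into it. Rhob fell by 1.27 in pFUS_UC (SE 0.26, adjusted p = 0.00169) and by 0.78 in UC (SE 0.25, adjusted p = 0.0207, and 0.0580 without AKI replicate 2). Ppp1r15a, also known as Gadd34, brings a phosphatase to the translation factor eIF2 alpha and so ends the stress block on protein synthesis. It had 26.2, 25.5, 25.1 and 18.5 CPM in pFUS_UC and 26.0, 20.3, 28.2 and 26.1 CPM in UC, against 30.7, 32.7, 32.3 and 36.2 CPM in AKI. All treated samples lay below all AKI samples, by little: it fell by 0.47 in pFUS_UC (SE 0.13, adjusted p = 0.0120) and by 0.39 in UC (SE 0.13, adjusted p = 0.0264, and 0.0795 without UC replicate 2 or 0.0716 without AKI replicate 4). Trib1, a pseudokinase that steers protein degradation, fell by 0.62 in pFUS_UC (SE 0.18, adjusted p = 0.0144), and adjusted p was 0.0884 with an offset for gene length and 0.186 with length and GC content.

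The remaining 3 of these regulators were not called. Gadd45g, a stress sensor of the p38 pathway, had 127, 287, 229 and 115 CPM in pFUS_UC and 519, 251, 252 and 341 CPM in UC, against 74.2, 141, 269 and 230 CPM in AKI. It was the only gene of the 36 whose change in pFUS_UC against AKI was above 0, at 0.09 (SE 0.39, adjusted p = 0.871), and its change in UC was 0.93 (SE 0.39, adjusted p = 0.0631). Gadd45b, its relative, ranged from 9.16 to 16.5 CPM in pFUS_UC, from 10.8 to 14.8 CPM in UC and from 12.5 to 19.4 CPM in AKI. Ier3, a regulator of survival, ranged from 38.5 to 82.6 CPM in pFUS_UC, from 39.0 to 71.1 CPM in UC and from 43.7 to 89.9 CPM in AKI.

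Several genes below the threshold passed it when 1 library was left out. In pFUS_UC against AKI these were Fosb without pFUS_UC replicate 1 (change -2.70, adjusted p = 0.0158), Jund without pFUS_UC replicate 1 or AKI replicate 1 (0.0454 and 0.0396), Klf6 without AKI replicate 3 (0.0411) and Klf10 without pFUS_UC replicate 1 or AKI replicate 3 (0.0427 and 0.0393). Myc passed without pFUS_UC replicate 1, UC replicate 1, UC replicate 4 or AKI replicate 3, at adjusted p of 0.0485, 0.0308, 0.0489 and 0.0342. In UC against AKI, Ier2, Csrnp1 and Trib1 passed as lower without AKI replicate 1 (0.0350, 0.0144 and 0.0263), Csrnp1 also without UC replicate 1 (0.0114), Fosl1 without AKI replicate 3 (0.0426) and Nr4a3 without UC replicate 2 (0.0289). Dusp5 passed as higher without UC replicate 2 or 4 (change 1.05, adjusted p = 0.0454 and 0.0329), and Gadd45g without AKI replicate 3 (change 1.20, adjusted p = 0.0344).

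Levels can be set side by side between genes only per length, for which the authors' deposited FPKM values were used. By the median over all 12 samples the highest was Gadd45g at 206 FPKM, followed by Jund at 114, Rhob at 57.3, Ier3 at 48.2 and Junb at 46.3 FPKM. Dusp1 stood at 36, Jun at 27.5, Egr1 at 17.1 and Fos at 9.63 FPKM, and the lowest were Fosl1 at 0.114, Nr4a3 at 0.0850 and Egr3 at 0.0542 FPKM. The order of the highest medians differed between groups, with Gadd45g first in each. In pFUS_UC it stood at 152 FPKM, followed by Jund at 96.7, Ier3 at 45.4 and Rhob at 36.4 FPKM, and in UC at 253 FPKM, followed by Jund at 126, Rhob at 57.3 and Ier3 at 45.7 FPKM. In AKI it stood at 160 FPKM, followed by Junb at 137, Jund at 136, Dusp1 at 99.9 and Rhob at 98.1 FPKM. Junb and Jund show how levels compare within a group. Junb had 51.5, 38.4, 21.5 and 11.5 FPKM in pFUS_UC and 69.9, 31.7, 46.9 and 27.8 FPKM in UC, against 45.8, 134, 151 and 141 FPKM in AKI. Jund had 121, 92.6, 101 and 63.6 FPKM in pFUS_UC and 153, 98.9, 145 and 107 FPKM in UC, against 91.6, 135, 137 and 156 FPKM in AKI. Their ranges thus overlapped in AKI, while in pFUS_UC and in UC every Junb value lay below every Jund value of the same group. The median of Egr1 was 7.10 FPKM in pFUS_UC and 14.1 FPKM in UC, against 64.2 FPKM in AKI.

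**Figure D3:**
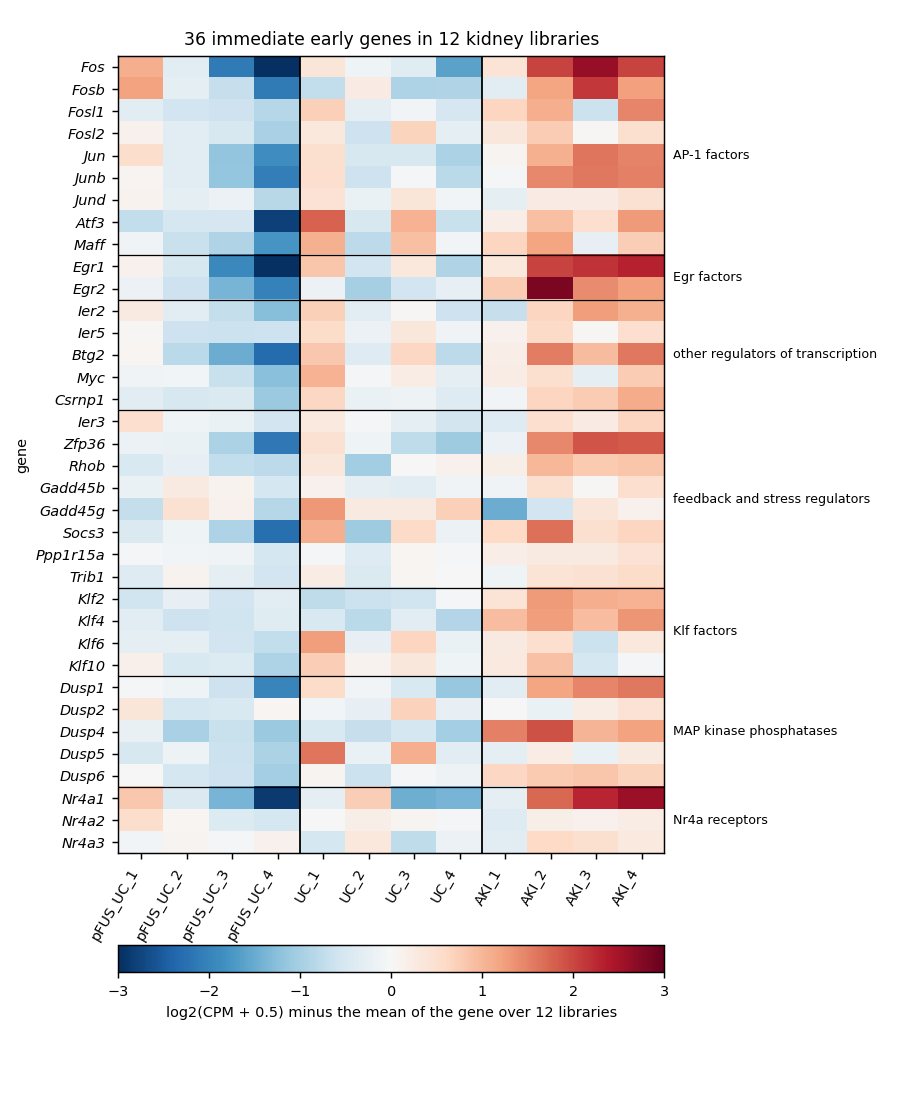
Log2 of TMM-scaled CPM, after adding 0.5, minus the mean of the gene over the 12 samples (color scale) for the 36 tested genes (rows, by role) in each sample of pFUS_UC, UC and AKI (columns). pFUS_UC replicate 4 is the lowest of all 12 samples for 29 of the 36 genes, and AKI replicate 1 is the lowest of its group for 25.

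The genes varied widely within groups. The biological coefficient of variation, edgeR's estimate of the spread between samples of a group beyond counting error, had a median of 36.2% over the 36 genes, against 20.3% over all tested genes. It was above the value edgeR's trend gives for genes of that level for 29 of the 36 genes, against 4674 of 16947 in all. Fosb at 77.3%, Fos at 76.2%, Fosl1 at 72.3%, Nr4a1 at 69.4% and Egr1 at 65.4% were the most variable. Ppp1r15a at 14.5%, Klf4 at 19.0%, Trib1 at 19.1% and Klf2 at 19.7% were the steadiest. Klf4 and Klf2 thus combined changes of at least 2.72-fold with a spread below the median gene.

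**Figure D4:**
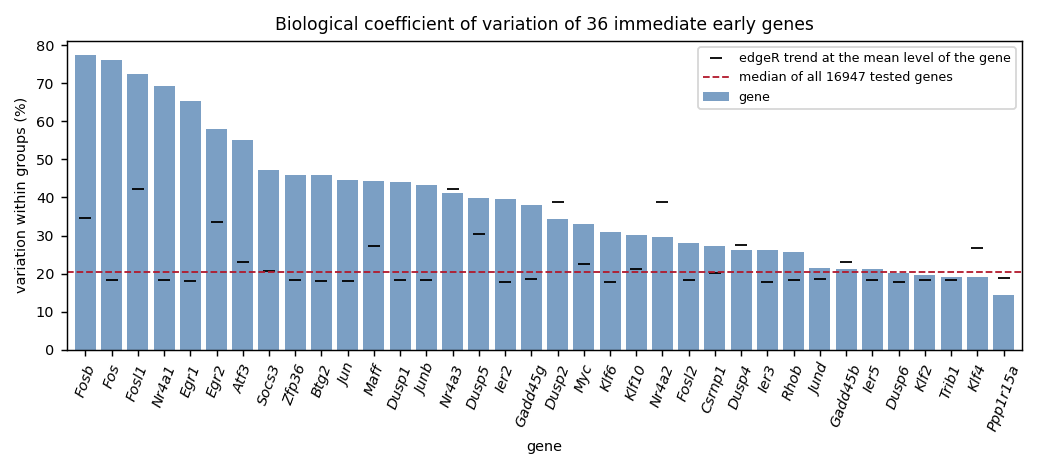
Biological coefficient of variation within groups (%, bars) of the 36 tested genes, with black dashes for edgeR's trend at the level of each gene and a dashed line for the median of all tested genes, 20.3%. The bars of Fosb, Fos, Fosl1, Nr4a1, Egr1 and Egr2 reach 57.9 to 77.3%, and those of Dusp6, Klf2, Trib1, Klf4 and Ppp1r15a lie under the line.

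The spread was shared between genes, so that samples were high or low for most of the family at once. pFUS_UC replicate 4 was the lowest of all 12 samples for 29 of the 36 genes, with a median log2 deviation of -1.0 from the mean. pFUS_UC replicate 1 was the highest of its group for 26 genes (median deviation -0.07), and UC replicate 1 was the highest of its group for 27 (median deviation 0.44). AKI replicate 1 was the lowest of its group for 25 genes. Its median deviation was 0.15, against 0.90, 0.49 and 0.80 in AKI replicates 2, 3 and 4. Such counts were not made over all genes. In the correlation with gene length AKI replicate 1 had 0.415, against 0.165 to 0.252 in the other AKI samples. Its mitochondrial share was 7.12%, against 2.87 to 5.88%. pFUS_UC replicate 1 had 0.04, against -0.253 to -0.195, and 7.38%, against 11.78 to 15.34%. pFUS_UC replicate 4 and UC replicate 1 did not stand apart in these measures, whose part was not tested. Markers of injured tubule also varied between these samples: 6 such markers summed to 173, 123, 172 and 25.2 CPM in pFUS_UC and 492, 188, 635 and 225 CPM in UC, against 184, 432, 156 and 365 CPM in AKI. The lowest sum was in pFUS_UC replicate 4, and the highest sums were in UC replicates 3 and 1, which were the highest samples for Dusp5 and Klf6. These 6 markers include Cdkn1a, which is also listed below among other primary response genes, so the sum is partly a measure of such genes. Cdkn1a averaged 41.1 CPM in pFUS_UC and 125 CPM in UC, against 144 CPM in AKI. The kidney injury marker Havcr1, itself a member of that list, ranged from 1.92 to 73.5 CPM in pFUS_UC and from 44.8 to 214 CPM in UC, against 20.2 to 98.1 CPM in AKI. The part of tubule injury in the levels of the immediate early genes was not tested. By group medians, 28 of the 36 genes had the order pFUS_UC below UC below AKI, and the AKI median was the highest for 33. The share of all genes with these orders was not counted, and edgeR called 0 of the 36 between pFUS_UC and UC.

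Between pFUS_UC and UC, edgeR called 0 of the 36 genes and 0% of all tested genes. DESeq2 called 0 of the 36 and 44 genes in all, and at an unadjusted p under 0.05 edgeR gave 11 of the 36 and 1342 of all 16947. The median change was -0.43, against 0.00 for all genes, and 30 of the 36 changes were below 0, against 49.6% of all. Without pFUS_UC replicate 4 and AKI replicate 1 the median was -0.25 and 24 changes were below 0. Klf6 was the only gene whose groups did not overlap, with 27.7 to 38.1 CPM in pFUS_UC and 39.2 to 112 CPM in UC, against 1.97% of all genes lower without overlap. Its change was -0.98 (SE 0.31, 95% confidence interval -1.69 to -0.27, adjusted p = 0.591).

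The smallest p in that comparison was that of Dusp5, with a change of -1.44 (95% confidence interval -2.37 to -0.51, adjusted p = 0.580). Atf3 had a change of -1.75 (interval -3.07 to -0.43, adjusted p = 0.591) and Maff a change of -1.31 (interval -2.35 to -0.26, adjusted p = 0.597). For genes with a wide spread the intervals were wide. Fos had a change of -0.04 with an interval of -1.83 to 1.75, so that a difference of over 3-fold either way lies within it. Klf2 had a change of 0.05 with an interval of -0.38 to 0.48, Klf4 a change of 0.14 with -0.28 to 0.56, and Dusp4 a change of -0.04 with -0.64 to 0.56. These misses of the threshold do not show that the groups are alike.

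Kinase cascades with their inhibitors, factors that switch the family on, and other response genes were taken from 6 lists. The lists were chosen with earlier results of these data known, so their shares describe these data and are no independent evidence. Their shares of fallen genes are read against the 22.1% of all tested genes that were lower in pFUS_UC than in AKI and the 24.3% that were lower in UC than in AKI. Of 23 genes of the ERK cascade and its inhibitors, 13 fell and 1 rose in pFUS_UC, and 14 fell and 4 rose in UC, with medians of -0.33 and -0.48. The fallen genes made up 56.5% of the list in pFUS_UC and 60.9% in UC. Spry1, a feedback inhibitor of ERK signalling that is itself a response gene, averaged 8.47 ± 2.77 CPM in pFUS_UC and 11.1 ± 1.74 CPM in UC, against 51.9 ± 13.8 CPM in AKI (SD, n = 4 each). It changed by -2.61 (SE 0.25, edgeR adjusted p = 5.50e-05) in pFUS_UC and by -2.23 (SE 0.24, adjusted p = 3.85e-05) in UC. Spred2, a related inhibitor, averaged 23.3 ± 2.75 CPM in pFUS_UC and 21.6 ± 2.69 CPM in UC, against 48.8 ± 4.45 CPM in AKI. Spry4, another inhibitor, fell by 1.95 in pFUS_UC. Of 19 genes of the p38 and JNK cascade, 7 fell and 0 rose in pFUS_UC, and 5 fell and 3 rose in UC. The fallen share was 36.8% in pFUS_UC and 26.3% in UC, the second near that of all genes and so no result about this list. Among them the kinase Map2k4 changed by -0.57 in pFUS_UC and by -0.51 in UC, and Map3k11 by -0.53 in pFUS_UC and by -0.59 in UC. Map3k7 changed by -0.51 in pFUS_UC, and the p38 kinase Mapk14 by -0.50 in UC.

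Of 18 factors that switch immediate early genes on, 11 fell and 1 rose in pFUS_UC, and 8 fell and 2 rose in UC, with medians of -0.56 and -0.51 and fallen shares of 61.1% and 44.4%. Srf, the factor that binds CArG boxes, averaged 30.5 ± 4.65 CPM in pFUS_UC and 31.3 ± 3.81 CPM in UC, against 57.4 ± 5.88 CPM in AKI. It fell by 0.91 in pFUS_UC (SE 0.13, adjusted p = 1.99e-04) and by 0.87 in UC (SE 0.13, adjusted p = 1.73e-04). Ep300, a histone acetyltransferase that works with CREB, fell by 0.78 in pFUS_UC and by 0.88 in UC. Mef2d, a relative of Srf, fell by 0.88 in pFUS_UC, and Elk3, an Srf partner, fell by 1.39 in UC.

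Of 33 tested genes of 35 listed as other primary response genes, 13 fell and 0 rose in pFUS_UC, and 8 fell and 3 rose in UC. The fallen share was 39.4% in pFUS_UC and 24.2% in UC, the second at that of all genes. Zfp36l2, a paralog of Zfp36, averaged 32.2 ± 8.44 CPM in pFUS_UC and 30.8 ± 10.9 CPM in UC, against 125 ± 14.7 CPM in AKI. The chromatin factor Arid5b fell by 1.16 in pFUS_UC and by 1.04 in UC, and Zfp36l1, another paralog, fell by 1.05 in pFUS_UC. Nfkbiz, a nuclear protein of the I-kappaB family, rose by 2.06 in UC (SE 0.43, adjusted p = 0.00171), with 44.3 ± 24.0 CPM in UC against 10.7 ± 5.48 CPM in AKI. Of 16 tested secreted response genes of 20 listed, 4 fell and 1 rose in pFUS_UC, and 4 fell and 2 rose in UC. The fallen share was 25% in both, near that of all genes, so these counts are no result about the list. Without AKI replicate 4 only 3 of these passed in either comparison, and without AKI replicate 3 only 3 passed in UC. The matricellular proteins Ccn2 and Thbs1 fell in both, Ccn2 by 1.47 in pFUS_UC and by 1.54 in UC and Thbs1 by 0.78 in pFUS_UC and by 0.79 in UC. Ccn1 fell by 1.73 in pFUS_UC, and the plasminogen activator Plau by 0.69 in UC. Of 16 cytoskeletal targets of SRF, 7 fell and 2 rose in pFUS_UC, and 7 fell and 0 rose in UC, a fallen share of 43.8% in both. The nonmuscle myosin gene Myh9 changed by -1.47 in pFUS_UC and by -1.36 in UC, and the actin-binding gene Cald1 by -1.32 in pFUS_UC and by -1.56 in UC. The adhesion gene Vcl changed by -2.43 in pFUS_UC and Fhl2 by -1.36 in UC. In pFUS_UC against UC, edgeR called 0 genes of the 6 lists.

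**Figure D5:**
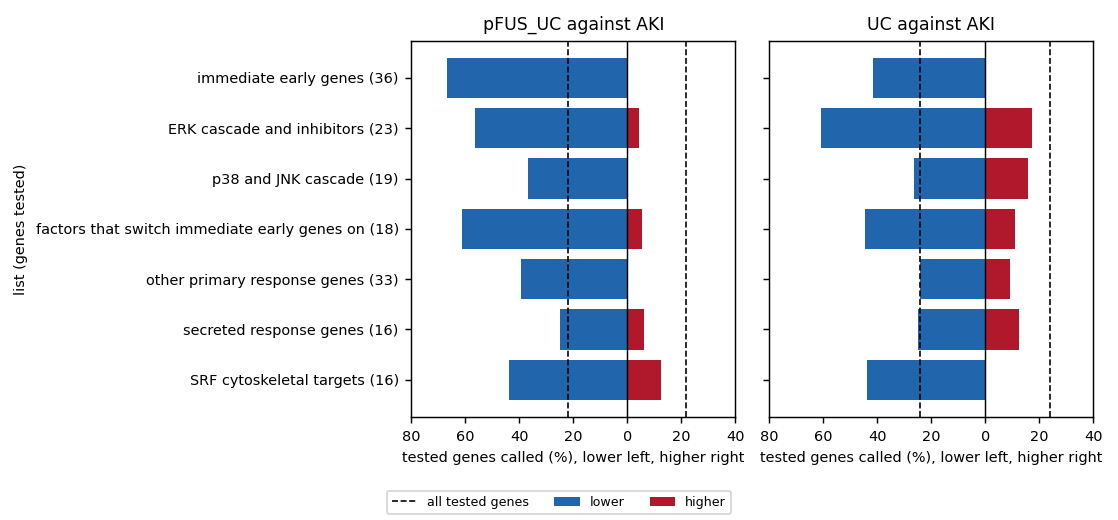
Share of tested genes called lower (blue, to the left) and higher (red, to the right) in pFUS_UC against AKI and in UC against AKI, for the immediate early genes and 6 related lists (rows, with the number tested); dashed lines show the shares among all tested genes. The immediate early genes have 66.7% lower in pFUS_UC and 41.7% lower in UC, with none higher.

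Immediate early genes are shorter than most: the 36 tested had a median length of 2914 bases, against 3871 for all tested genes. Because levels moved with gene length differently in AKI, the fits were repeated with an offset for length. The counts of called genes were then 25 in pFUS_UC and 15 in UC, with medians of -1.34 and -0.84, and with an offset for length and GC content they were 22 and 15, with medians of -1.21 and -0.72. With the length offset Jund, Ier3 and Gadd45b passed the threshold as lower in pFUS_UC (adjusted p = 0.0219, 0.0469 and 0.0308), and Ier3 and Gadd45b in UC (0.0264 and 0.0156), whereas Fosl2 and Trib1 no longer passed in pFUS_UC.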

How the data were processed

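Bulk RNA of 12 kidney samples from cisplatin-treated mice, 4 each of pFUS_UC, UC and AKI, was sequenced. Per the submitters' processing notes, HTSeq, DESeq2 and GRCm39 (mm39) were used; which aligner and strand setting were used is not given in the sources used here. The authors deposited raw counts per gene and FPKM values; each FPKM value equalled the count divided by gene length and a scaled library total, to within 1%. Genes with too few counts were removed by filterByExpr (minimum count 10, minimum total 15). On the rest, a quasi-likelihood F-test was run over the 12 samples (edgeR 4.0.16, R 4.3.3), with TMM scaling and 9 residual degrees of freedom. SE was taken as the size of the log2 fold change over the root of the F statistic. Depth was 17.3 to 25.2 M counts. The script was tested on simulated data. Each of the 37 genes is described, and from each companion list up to 3 called genes with the smallest p; 1 gene that this rule names is not reported here. The members and lists were chosen with earlier results of these data known. Alternatives were DESeq2 1.42.0, its size factors, no filter, 1 CPM in 4 samples, only the groups compared, a replicate block, each sample left out, limma 3.58.1 on log2(FPKM + 1) or log2(FPKM + 0.1), and offsets for gene length and GC content (98.1% of tested genes had a GC value, matched by ID to GRCm38). Leaving out AKI replicate 1 and pFUS_UC replicate 4 together was chosen after seeing the data.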

Additional observations from a re-analysis of the deposited data

Results flagged for a closer look

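Within a group of 4 samples, a value is listed here when it lies apart from the other 3 by more than Dixon's 95% limit; chance gives about 1 in 20 groups, and 7 of 156 groups were listed. Of the immediate early genes, Fosb had 2.33 CPM in UC replicate 2, above 0.749 to 0.934 CPM in the other UC samples. Dusp2 had 2.60 CPM in UC replicate 3, above 1.11 to 1.31 CPM. Ier5 had 41.6 CPM in pFUS_UC replicate 1, above 25.5 to 26.1 CPM, and Ppp1r15a had 18.5 CPM in pFUS_UC replicate 4, below 25.1 to 26.2 CPM. Junb had 107 CPM in AKI replicate 1, below 304 to 339 CPM, and Socs3 had 49.9 CPM in AKI replicate 2, above 21.6 to 24.4 CPM. The markers of vascular smooth muscle and fibroblasts summed to 229 CPM in UC replicate 4, above 145 to 152 CPM in the other UC samples.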

How the results depend on the processing

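Of the 24 genes called in pFUS_UC against AKI, 17 were called under every alternative that tested them (21 for Fosl1 and 23 for the others), and of the 15 in UC against AKI, 6 were called under all 23: Egr2, Klf2, Klf4, Dusp4, Dusp6 and Zfp36. No called value changed sign under any of them. Leaving out 1 sample at a time, 8 to 18 of the 36 genes were called in UC against AKI. In pFUS_UC against UC, where edgeR called 0 of all tested genes, DESeq2 called 44, edgeR without a filter 13, the replicate block 2, the fits without 1 sample 0 to 1, and the fit without AKI replicate 1 and pFUS_UC replicate 4 together 1; the cause was not tested. Groups share replicate numbers, but same-numbered samples did not deviate together: 12 pairs correlated between -0.165 and 0.147, and 2 of 12 samples correlated best with their own number. With the replicate block, 25 of the 36 genes were called in pFUS_UC against AKI, 14 in UC against AKI and 0 in pFUS_UC against UC. By limma on FPKM, Ier2 in pFUS_UC against AKI and Dusp1 in UC against AKI lost their calls (adjusted p 0.0624 and 0.0552 with 1 added). With 0.1 added, Fos and Egr1 in UC against AKI lost theirs as well (0.0653 and 0.0840). With the length offset Fosb and Egr1 in UC lost theirs (0.0663 and 0.0612). Other settings added calls. In pFUS_UC against AKI, Myc passed with DESeq2 (adjusted p 0.0293), no filter (0.0206), only the groups compared (0.0411) and the replicate block (0.0476). Klf6 passed there with no filter (0.0480) and only the groups compared (0.0339). In UC against AKI, Csrnp1 passed with DESeq2 (0.0410). With no filter Csrnp1 (0.0234) and Btg2 (0.0378) passed as lower and Gadd45g (0.0295) as higher. Low counts limit Egr3, Fosl1 and Nr4a3. Fosl1 in pFUS_UC against AKI was not tested with only the groups compared or with 1 CPM in 4 samples.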
